A study of Mus musculus with 6 samples.

Results

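The 39 genes described here encode the proteins that copy DNA in S phase. They were taken as a fixed list of symbols from the deposited count table (MCM2, PCNA and E2F1, for example, in capitals there), and all 39 were found among its 24982 symbols. The list covers the MCM2 to MCM7 helicase, the factors that load and fire it, the replicative DNA polymerases and primase, the sliding clamp with its loader, Okazaki fragment maturation, nucleotide supply, chromatin assembly behind the fork, and 2 E2F transcription factors. Expression was measured by mRNA sequencing in mouse natural regulatory T (nTreg) cells, a T cell type that restrains immune responses. KO cells came from 3 Srsf1-flox/flox dLck.Cre mice, in which Cre under the distal Lck promoter removes the splicing factor gene Srsf1 in T cells, and WT cells from 3 WT mice. All 6 mice were of strain B6.129 and 8 to 10 weeks old, and the sorted CD4+CD25+CD127lo spleen cells were stimulated for 72 h with anti-CD3 and anti-CD28 (2 µg/ml each) and recombinant interleukin-2 (10 ng/ml). The source field of the labels names effector CD4 T cells instead, and whether the WT mice carried Cre or a floxed allele is not given.

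Before S phase, the origin recognition complex, Cdc6 and Cdt1 load the MCM2 to MCM7 ring onto DNA, and the kinase Cdc7 together with Cdc45 and the GINS complex turns it into a running helicase. DNA polymerase alpha with primase starts each strand, polymerases delta and epsilon extend it on the clamp Pcna, and most of the genes involved are switched on together at the G1 to S transition by E2F factors. Stimulation through the T cell receptor with interleukin-2 brings T cells into this program, so that cycling T cells hold much of these mRNAs and resting ones little.

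A feature of the list that its choice did not use is the sequence before the genes' starts. Of the 39 members, 34 have an entry in the RefSeq promoter table (GRCm38.p6, 250 bases before to 50 after a start). The letters TTTCGCGC, TTTGGCGC, TTTCCCGC or TTTGCCGC, of the kind that E2F factors are known to bind, were searched on both strands, with overlapping matches counted. They stood in 12 of the 34 member genes, or 35.3%, against 2.60% of all 27025 genes in the table. This background was not matched to the members for GC content or for expression in these cells. At least 2 matches were found in 5 members, or 14.7%, against 0.107% of all genes. These 5 were Mcm6 with 3 matches and Mcm3, Mcm5, Mcm7 and Rfc3 with 2 each. The promoters of these 4 helicase genes are shown because their products belong to 1 ring and their mRNA levels are compared below. Of the other genes of the ring, Mcm2 had 0 matches and Mcm4 had no entry. Each sequence runs from 5′ to 3′ along the gene's strand, with the matches on either strand in capitals. The matches are letters in a sequence, and binding was not measured.
Mcm6, chr1:128359656-128359955, minus strand: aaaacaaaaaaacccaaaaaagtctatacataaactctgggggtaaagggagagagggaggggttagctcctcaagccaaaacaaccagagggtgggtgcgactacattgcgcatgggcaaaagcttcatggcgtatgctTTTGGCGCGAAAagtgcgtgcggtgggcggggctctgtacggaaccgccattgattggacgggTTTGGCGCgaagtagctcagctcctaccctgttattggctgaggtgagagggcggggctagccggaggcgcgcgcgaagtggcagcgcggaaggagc
Mcm3, chr1:20820263-20820562, minus strand: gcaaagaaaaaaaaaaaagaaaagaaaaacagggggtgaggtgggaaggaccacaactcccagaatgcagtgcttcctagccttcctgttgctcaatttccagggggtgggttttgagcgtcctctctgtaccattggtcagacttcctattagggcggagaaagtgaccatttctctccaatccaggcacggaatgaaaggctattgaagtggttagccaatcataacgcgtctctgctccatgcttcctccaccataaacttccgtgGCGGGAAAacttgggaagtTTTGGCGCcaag
Mcm5, chr8:75109259-75109558, plus strand: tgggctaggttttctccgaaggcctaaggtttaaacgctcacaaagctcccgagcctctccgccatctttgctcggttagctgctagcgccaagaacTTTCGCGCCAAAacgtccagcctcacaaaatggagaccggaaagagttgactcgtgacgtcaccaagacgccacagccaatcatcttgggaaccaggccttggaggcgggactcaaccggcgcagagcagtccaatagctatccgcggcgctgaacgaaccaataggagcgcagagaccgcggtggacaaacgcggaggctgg
Mcm7, chr5:138171834-138172133, minus strand: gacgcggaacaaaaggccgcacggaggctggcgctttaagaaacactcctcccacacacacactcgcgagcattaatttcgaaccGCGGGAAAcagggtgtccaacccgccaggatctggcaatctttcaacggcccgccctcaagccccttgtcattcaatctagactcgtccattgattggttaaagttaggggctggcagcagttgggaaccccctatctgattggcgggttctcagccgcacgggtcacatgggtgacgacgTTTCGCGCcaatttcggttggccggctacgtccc
In Mcm6 and in Mcm5, 2 of the matches overlap and read as a single run of capitals. MCM4, GINS1, GINS2, POLE and RFC2 were the members without an entry.

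The libraries held 20373649, 13241964 and 10183626 counts in KO replicates 1 to 3, against 23263741, 25908166 and 27562046 in WT replicates 1 to 3. Srsf1 itself stood at 438, 812 and 787 CPM (counts scaled to a common library size by TMM) in the KO libraries and at 1214, 1230 and 755 CPM in the WT libraries. The library labelled WT replicate 3 was thus below KO replicates 2 and 3 for the deleted gene, and it carries that name throughout. Whether the counts take in Srsf1 exons outside the deleted part is not given. The Treg regulator Foxp3 was present in every library, at 357 to 464 CPM in KO and 104 to 160 CPM in WT. The list of 4 Treg markers (Foxp3, Il2ra, Ikzf2 and Ctla4) summed to 4158, 5944 and 8062 CPM in KO and 6154, 4779 and 7861 CPM in WT libraries. These sums overlap, and Il2ra made up most of each. Ikzf2, like Foxp3, was higher in all KO libraries, at 170 to 305 CPM against 85.6 to 155 CPM in WT. Il2ra had 3300 to 6880 CPM in KO and 4073 to 6566 CPM in WT. Ctla4 had 224, 354 and 574 CPM in KO and 450, 431 and 1105 CPM in WT, and both genes overlapped. Il7r, which encodes the CD127 used in the sort, had 39.1, 122 and 144 CPM in KO and 127, 107 and 263 CPM in WT libraries. The Cd8a and Cd8b1 mRNAs of CD8 T cells summed to 38.9 to 60.5 CPM in KO and 193 to 269 CPM in WT libraries, and neither was at 0 in any library. The 4 T cell genes Cd3e, Cd3d, Cd3g and Cd4 summed to 1166 to 1256 CPM in KO and 847 to 905 CPM in WT. Cd4 had 425 to 503 CPM in KO and 238 to 316 CPM in WT, and Cd3e 352 to 389 and 197 to 255 CPM. Cd3d and Cd3g overlapped. The part of these marker differences in the members' values was not tested. Markers of B cells, macrophages and monocytes were low, with sums of 0.702 to 4.76 CPM in KO and 2.55 to 4.23 CPM in WT for 4 B cell genes, and of 0.226 to 0.501 CPM in KO and 0.0452 to 0.251 CPM in WT for 5 macrophage and monocyte genes, 2 of which were listed at 0 in all libraries. The 3 NK cell genes summed to 4.30, 17.2 and 15.7 CPM in KO and 5.51, 8.98 and 16.8 CPM in WT libraries, most of it from Klrd1. In bulk RNA, fewer cells of a type and less RNA per cell cannot be told apart. Nothing in the labels says more on the mice than their genotype, strain and age, so p-values measure the spread between these 6 samples.

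All 39 members passed the filter on low counts, and no member passed the test of KO against WT. With edgeR's quasi-likelihood test and Benjamini-Hochberg adjustment over 11772 genes, 0 of 39 members had an adjusted p under 0.05, against 0.017% of all genes. The smallest adjusted p of a member was 0.712 (E2f1), and the DESeq2 Wald test also called 0 members. Before adjustment, 0 of 39 members had p under 0.05, with a lowest p of 0.106, against 7.51% of all genes. The 3 KO libraries lay wholly above or below the 3 WT libraries in 2 of 39 members, against 15.7% of all genes. A log2 fold change above 0 was found in 24 of 39 members, or 61.5%, against 51.6% of all genes, and the median log2 fold change was 0.11 over the members against 0.02 over all genes tested.

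The size of change that these libraries could have hidden differs between members. The standard errors of the log2 fold changes ran from 0.20 to 0.55 with a median of 0.27. For 27 members the 95% interval of the log2 fold change lay within −1 and 1, which leaves out a 2-fold difference either way. For 9 members it reached above 1 and for 3 below −1, and all 39 intervals spanned 0. Without KO replicate 1, all 39 intervals lay within −1 and 1, and the log2 fold changes ran from −0.35 (Pold1) to 0.27 (Tyms). Compared with all 6 libraries, 17 members changed sign, 10 to below 0 and 7 to above 0. The narrower intervals depend on which library is left out, and KO replicate 1 was the one with the widest deviations. Without KO replicate 2, only 19 of 39 intervals lay within −1 and 1. The log2 fold changes then ran from −0.56 (Pola1) to 1.04 (Pold1). The median standard error was 0.326 without KO replicate 2 and 0.187 without KO replicate 1.

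**Figure D1:**
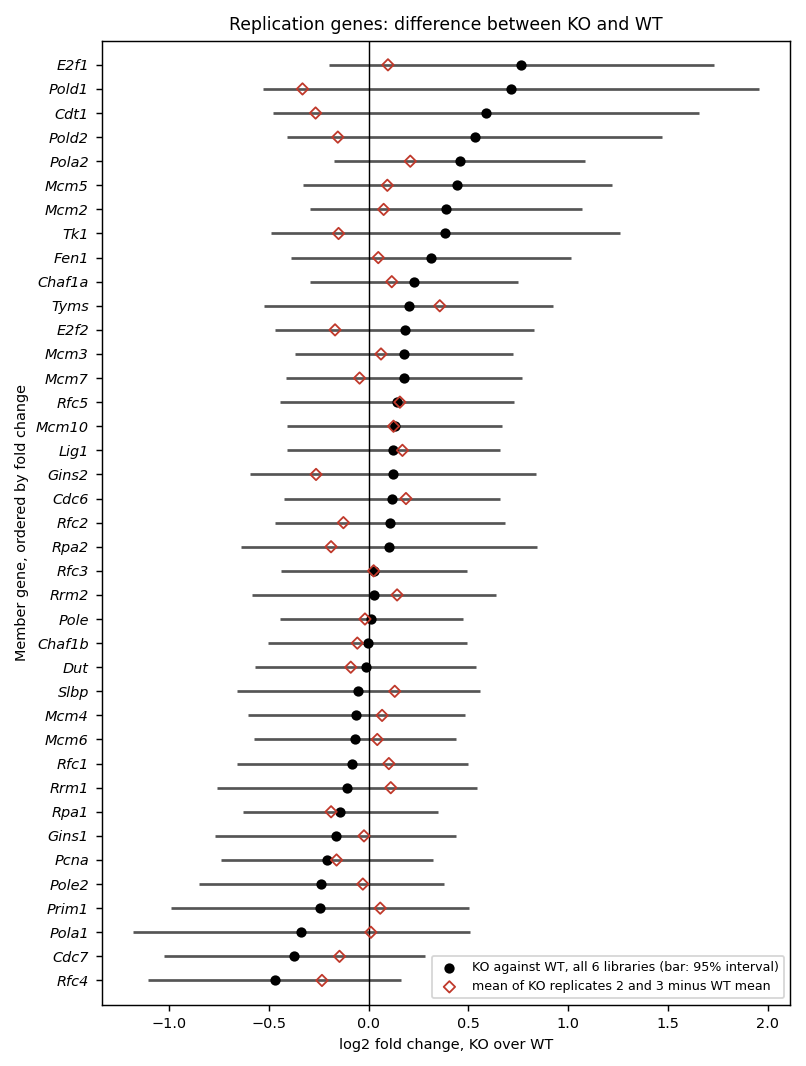
Log2 fold change of each member, KO over WT (x axis), with members ordered by fold change (y axis). Filled points are the edgeR values over all 6 libraries with 95% intervals as bars, and open diamonds are the mean log2 CPM of KO replicates 2 and 3 minus the WT mean. All bars cross 0, and the members at the top, led by E2f1 at 0.76 and Pold1 at 0.71, move towards or across 0 in the diamonds.

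Levels per transcript length, given as the authors' FPKM values, spread 79.6-fold over the members. Pcna, the clamp that holds polymerases on DNA, was the most abundant at 442 ± 41.8 FPKM in KO and 507 ± 77.3 FPKM in WT (SD, n = 3 each). Its lowest library, at 402 FPKM, lay above the highest library of any other member. Rrm2 and Rrm1, the small and large subunits of ribonucleotide reductase, and Mcm6 followed at 157 to 200.5 FPKM over all libraries, and their libraries overlapped. Over all 6 libraries, 7 members averaged more than 100 FPKM and 6 less than 20 FPKM. The kinase gene Cdc7 averaged 9.68 FPKM and E2f1 was lowest at 5.96 FPKM. E2f1 had 7.68 ± 5.59 FPKM in KO and 4.24 ± 0.431 FPKM in WT (SD, n = 3 each), and its lowest count, 159 in KO replicate 3, was the lowest of any member.

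**Figure D2:**
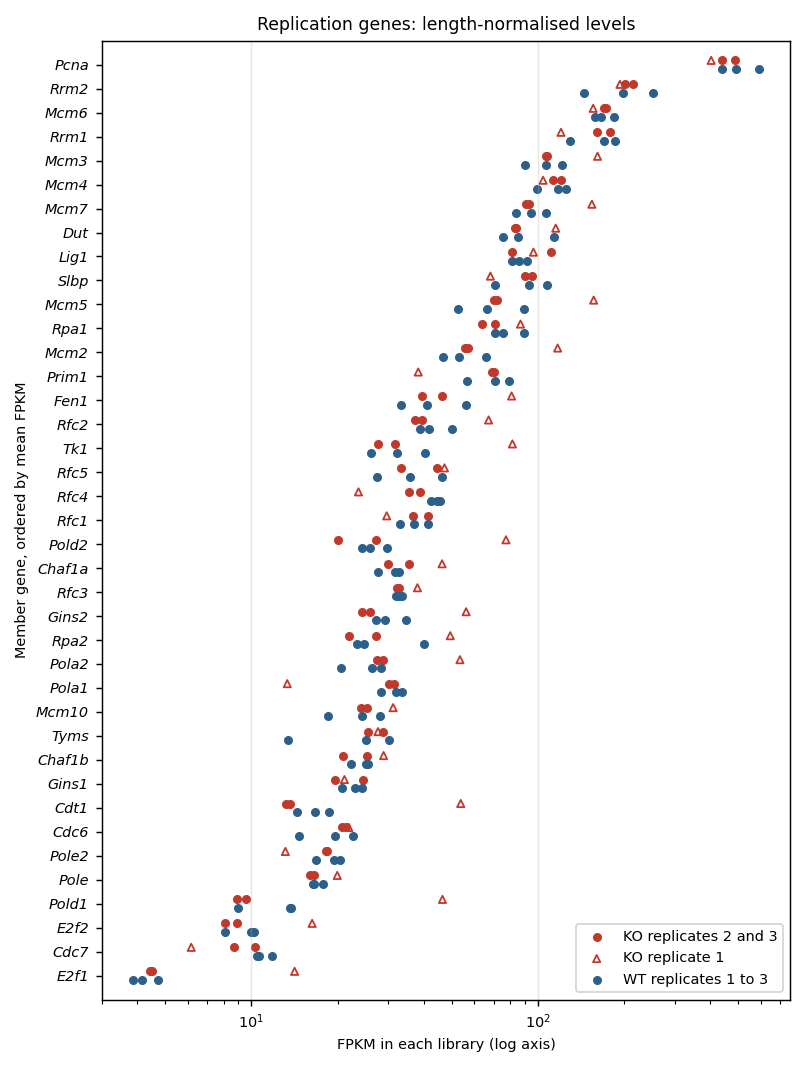
FPKM of each member in each library on a log axis (x axis), members ordered by their mean over 6 libraries (y axis). Red circles are KO replicates 2 and 3, red open triangles KO replicate 1 and blue circles WT replicates 1 to 3, and the order of the members, from Pcna to E2f1, spans 79.6-fold while the KO and WT points of most members overlap.

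The helicase ring is made of 1 copy of each of Mcm2 to Mcm7, and 4 of its 6 genes had a log2 fold change above 0. Mcm5 measured 623, 323 and 323 CPM in KO and 312, 394 and 225 CPM in WT libraries. The library of KO replicate 1 was the highest, and the other KO libraries lay between the WT ones. Its log2 fold change was 0.45 (SE 0.34; edgeR adjusted p = 0.754). Mcm2 had the same order, with 453, 252 and 259 CPM in KO and 247, 291 and 198 CPM in WT libraries and a log2 fold change of 0.39 (SE 0.30). Mcm3 measured 559, 430 and 444 CPM in KO and 445, 478 and 344 CPM in WT (log2 fold change 0.18), and Mcm7 366, 237 and 243 CPM in KO and 255, 282 and 211 CPM in WT (0.18). In these 4 genes KO replicate 1 stood above all other libraries. The remaining pair of subunits went the other way in that library. Mcm4 had 428, 580 and 546 CPM in KO against 581, 589 and 452 CPM in WT, and Mcm6 531, 678 and 679 CPM in KO against 646, 709 and 623 CPM in WT, with log2 fold changes of −0.06 and −0.07. For both, KO replicate 1 was the lowest library. Relative to the WT mean, the 6 subunits spread over 1.37 log2 units in KO replicate 1 but over 0.17 and 0.12 in KO replicates 2 and 3 and over 0.14, 0.28 and 0.35 in the WT libraries. The Mcm2 to Mcm6 ratio of FPKM was 0.752 in KO replicate 1, 0.324 and 0.335 in the other KO libraries, and 0.336, 0.360 and 0.279 in the WT libraries.

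Among the factors that load and fire the helicase, 4 of 6 members had a log2 fold change above 0. Cdt1, which brings the MCM ring to origins, had 131, 37.1 and 39.3 CPM in KO and 42.8, 51.1 and 44.3 CPM in WT libraries. KO replicate 1 was high and the other KO libraries were below all WT libraries, so the log2 fold change of 0.59 (SE 0.47) came out at −0.27 (SE 0.17) without KO replicate 1. Gins2, a subunit of the GINS complex, showed the same order, while its partner Gins1 was lowest in KO replicate 1, with log2 fold changes of 0.12 and −0.17. Cdc7 was at −0.37, the second lowest value of the list. Cdc6 and Mcm10, an assembly factor of the active helicase, stood at 0.12 and 0.13, with the library labelled WT replicate 3 the lowest of all for both.

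The polymerase genes held the widest differences within 1 library. Pold1, the catalytic subunit of polymerase delta, had 188, 45.1 and 42.9 CPM in KO and 43.8, 62.6 and 62.0 CPM in WT libraries. Its log2 fold change was 0.71 (SE 0.55, 95% interval −0.53 to 1.96, edgeR adjusted p = 0.754), and without KO replicate 1 it was −0.35 (SE 0.20). Pold2, the second subunit of that polymerase, had 133, 54.6 and 41.1 CPM in KO and 53.6, 57.9 and 47.2 CPM in WT libraries. Its log2 fold change was 0.53 (SE 0.41), and −0.14 (SE 0.19) without KO replicate 1. Pola1, the catalytic subunit of polymerase alpha, had 85.3, 232 and 226 CPM in KO and 258, 230 and 197 CPM in WT libraries, a log2 fold change of −0.34 (SE 0.37) and of 0.002 without KO replicate 1. Prim1, the primase subunit that makes the RNA primer, was likewise lowest in KO replicate 1 with 62.7, 131 and 133 CPM in KO and 155, 130 and 101 CPM in WT. Pola2, the accessory subunit of the same complex, had 148, 93.2 and 90.9 CPM in KO and 88.8, 90.4 and 62.9 CPM in WT libraries. All 3 KO libraries were above all 3 WT libraries, though KO replicate 3 exceeded the WT replicate 2 value only narrowly, and the exact permutation p was 0.1 (two-sided), the smallest that 3 against 3 allows. In KO replicate 1 the Pola2 to Pola1 ratio of FPKM was 4.01, against 0.915 and 0.911 in KO replicates 2 and 3 and 0.782, 0.887 and 0.727 in the WT libraries. Pole and Pole2 of polymerase epsilon had log2 fold changes of 0.01 and −0.24.

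**Figure D3:**
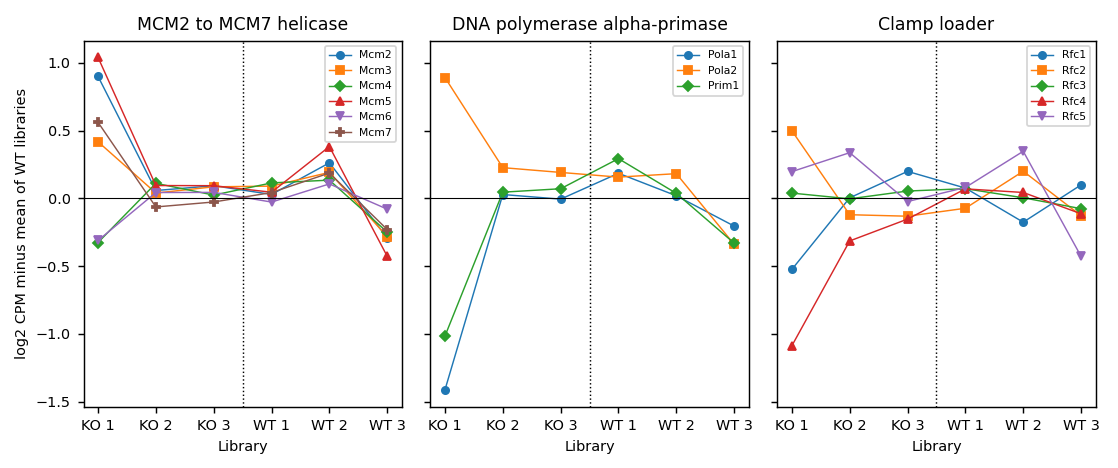
Log2 CPM of each subunit minus its mean over the 3 WT libraries (y axis) in each library (x axis, KO left of the dotted line), for the MCM helicase, polymerase alpha with primase, and the clamp loader. Lines join 1 gene over the libraries; in KO replicate 1 the subunits of polymerase alpha and primase spread over 2.30 log2 units, and over 0.13 to 0.20 in the other 5 libraries.

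Transcripts of these subunits differ in base composition, which is shown here since the members divided along it in KO replicate 1. The stretches below are 120 bases of each coding sequence, from the GRCm38 GENCODE M21 transcripts, with a G and C share close to that of the whole coding sequence and with G and C in capitals. The coding sequences of Pold1 and Pola2 (chromosomes 7 and 19, minus strand) hold 60.7% and 54.7% G and C. Those of Pola1 (chromosome X, minus strand) and Prim1 (chromosome 10, plus strand) hold 41.9% and 44.9%.
Pold1, bases 277 to 396 of the coding sequence: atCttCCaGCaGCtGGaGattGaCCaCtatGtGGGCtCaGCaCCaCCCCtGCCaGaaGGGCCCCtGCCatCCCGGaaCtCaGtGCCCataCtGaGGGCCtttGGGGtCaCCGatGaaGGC
Pola2, bases 28 to 147 of the coding sequence: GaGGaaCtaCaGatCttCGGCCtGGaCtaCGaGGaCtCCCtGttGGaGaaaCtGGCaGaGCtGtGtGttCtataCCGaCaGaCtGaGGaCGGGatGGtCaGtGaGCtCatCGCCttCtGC
Pola1, bases 76 to 195 of the coding sequence: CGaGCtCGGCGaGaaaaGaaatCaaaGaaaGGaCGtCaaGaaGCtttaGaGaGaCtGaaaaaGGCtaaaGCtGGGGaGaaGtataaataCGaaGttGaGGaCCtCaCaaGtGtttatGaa
Prim1, bases 223 to 342 of the coding sequence: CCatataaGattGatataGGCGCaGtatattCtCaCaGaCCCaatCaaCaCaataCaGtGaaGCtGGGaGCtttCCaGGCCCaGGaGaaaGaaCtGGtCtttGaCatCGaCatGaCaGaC
The windows of Pold1 and Pola2 hold 73 and 66 G or C bases and those of Pola1 and Prim1 50 and 54.

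For the clamp and the proteins around it, 4 of 8 log2 fold changes were above 0. Pcna had 353, 394 and 360 CPM in KO and 411, 515 and 353 CPM in WT libraries, a log2 fold change of −0.21 (SE 0.23, 95% interval −0.74 to 0.32). Rfc4, a subunit of the loader that opens the clamp, had the lowest log2 fold change of the list at −0.47 (SE 0.28; edgeR adjusted p = 0.720). It measured 29.8, 51.0 and 57.1 CPM in KO and 66.6, 65.4 and 58.6 CPM in WT libraries, so all KO libraries lay below all WT libraries (exact permutation p = 0.1). Without KO replicate 1 its log2 fold change was −0.24 (SE 0.15). The other loader genes Rfc1, Rfc2, Rfc3 and Rfc5 had log2 fold changes from −0.08 to 0.14. Rfc3 was the steadiest, with 48.1 ± 0.992 CPM in KO and 47.2 ± 2.41 CPM in WT (SD, n = 3 each). Rpa1 and Rpa2, which coat single-stranded DNA, were at −0.14 and 0.10. Fen1 and Lig1, which trim and seal Okazaki fragments, were at 0.31 and 0.12, and Fen1 was at 0.02 without KO replicate 1.

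Of the nucleotide supply genes, 3 of 5 had a log2 fold change above 0. Tyms, the thymidylate synthase gene, had 119, 145 and 132 CPM in KO and 131, 150 and 64.5 CPM in WT libraries. Its low value in the library labelled WT replicate 3 gave the widest highest-to-lowest ratio among the 5 libraries without KO replicate 1, at 2.32. Rrm1, Rrm2 and Dut, which removes dUTP, had log2 fold changes of −0.11, 0.03 and −0.01. Tk1, a salvage kinase for thymidine, was at 0.38 (SE 0.38), with KO replicate 1 the highest library, and at −0.17 (SE 0.22) without it. Of the chromatin genes, the chromatin assembly factor subunits Chaf1a and Chaf1b were at 0.23 and −0.01, and Slbp, which binds histone mRNA, at −0.05.

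Both E2F genes had a log2 fold change above 0, and KO replicate 1 was the highest library of each. E2f1 had 43.0, 15.3 and 15.9 CPM in KO and 13.9, 14.2 and 15.7 CPM in WT libraries. Its log2 fold change of 0.76 was the highest of the list (SE 0.42, 95% interval −0.20 to 1.73), with an exact permutation p of 0.2, and it was 0.09 (SE 0.19) without KO replicate 1. E2f2 had 89.5, 46.5 and 52.1 CPM in KO and 51.5, 57.7 and 57.0 CPM in WT libraries. Its log2 fold change was 0.18 with all libraries and −0.17 without KO replicate 1.

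Across the list, KO replicate 1 was the highest library for 17 members and the lowest for 11, that is outside the range of the other 5 in 71.8% of the members, as in 71.5% of all genes tested. Its deviations from the WT mean ran from −1.41 (Pola1) to 1.76 (Pold1) with an SD of 0.76 log2 units over the 39 members. In the other 5 libraries this SD was 0.13 to 0.18. The side taken in KO replicate 1 went with the GC content of the transcript. Of the 20 members with 50.15% to 60.74% GC, 20 were above the WT mean in that library, with a median of 0.69. Of the 19 members with 41.47% to 49.37% GC, 14 were below it, with a median of −0.33. Over the 39 members Pearson's r between deviation and GC content was 0.931 in KO replicate 1 (Spearman's rho 0.921), against −0.248 and −0.210 in KO replicates 2 and 3 and −0.559, 0.078 and 0.341 in the WT libraries. The members share 1 library, and r over 11674 genes in KO replicate 1 was 0.768, so the trend was not particular to replication genes. The authors' alignment report gives this library a mismatch rate of 0.52% per base, against 0.32% and 0.35% in the other KO libraries and 0.37% to 0.43% in the WT libraries. Its average mapped length was the lowest, at 73.68 bases against 74.14 to 74.52. Its share of uniquely mapped reads was the highest, at 81.33% against 77.45% to 80.67%. The relation of these measures to the GC trend was not tested. With a correction for GC content and length in every library, chosen after the data were seen, the SD of KO replicate 1 over the members was 0.297, 0 members were called and the log2 fold changes ran from −0.28 (Cdc7) to 0.31 (Mcm5), with that of Pold1 at −0.0003. The part of GC content in the values of single members was not tested beyond this correction.

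**Figure D4:**
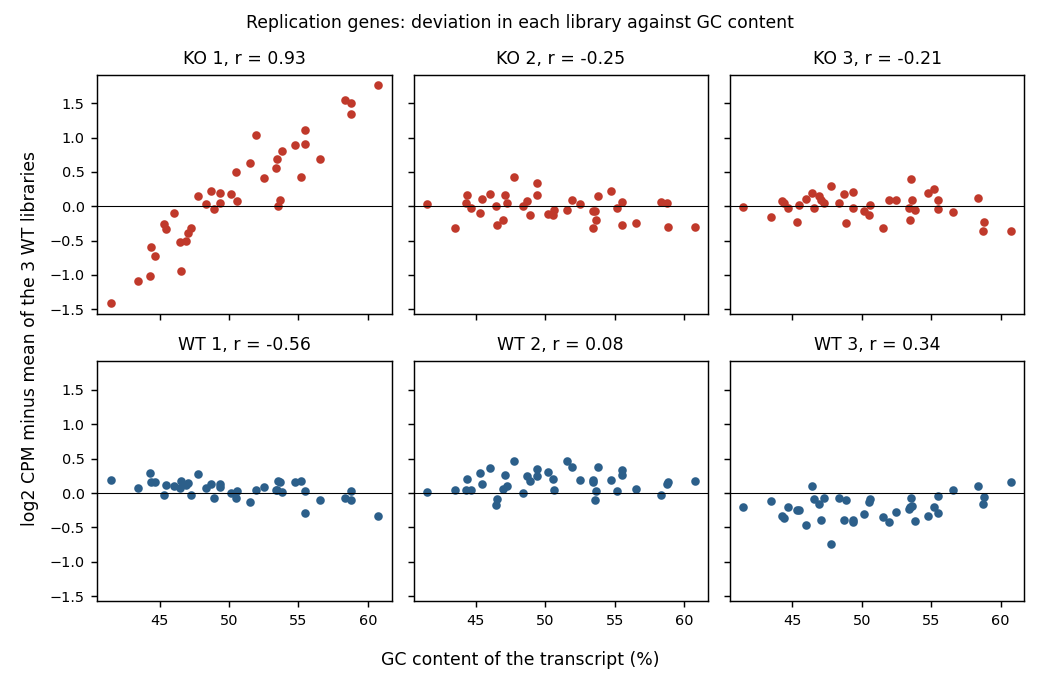
Log2 CPM of the 39 members minus their WT mean (y axis) against the GC content of their longest coding transcript in percent (x axis), 1 panel per library, KO in the upper row and WT in the lower row. Each point is a member; the points rise with GC content in KO replicate 1 (Pearson's r 0.931) and lie between −0.74 and 0.47 in the other panels.

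Among the 5 other libraries the deviations were smaller and, in WT replicate 2 and in the library labelled WT replicate 3, mostly on 1 side of the WT mean, above it for 35 and below it for 35 of 39 members. The WT mean is taken over these same WT libraries, so a high WT library lowers the deviations of the others. Both counts are therefore not independent, and no share over all genes is given beside them. WT replicate 2 was the highest of the 5 in 26 of 39 members, or 66.7%, against 20.2% of all genes tested. The library labelled WT replicate 3 was the lowest in 24 members, or 61.5%, against 28.1% of all genes. The summed level of the 39 genes was 8005, 7677 and 7692 CPM in the KO libraries and 7854, 8479 and 6310 CPM in the WT libraries. KO replicates 2 and 3 thus lay between the WT libraries in the sum, and in 23 of 39 members both lay inside the WT range. The same count was not taken over all genes, so whether it is particular to the list is not known. That range takes in the mostly high WT replicate 2 and the mostly low library labelled WT replicate 3. On the log2 scale the mean deviation of the members from the WT mean was 0.19, −0.02 and 0.01 in the KO libraries and 0.05, 0.16 and −0.22 in the WT libraries. Between these 5 libraries the highest-to-lowest ratio of a member was 1.40 in the median and under 1.5 in 27 members, from 1.095 for Pole to 2.32 for Tyms. Leaving out the library labelled WT replicate 3 turned the median log2 fold change of the members to −0.05 with 16 of 39 above 0, and leaving out KO replicate 1 gave 0.02 with 21 above 0. With both left out the median was −0.08 and 9 were above 0. Leaving out KO replicate 3 gave 0.07 with 20 above 0, and leaving out KO replicate 2 gave 0.10 with 25. Without WT replicate 1 the median was 0.06 with 26 above 0. Without WT replicate 2 it rose to 0.21 with 28 above 0. Members called stayed at 0 in all these cases.

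**Figure D5:**
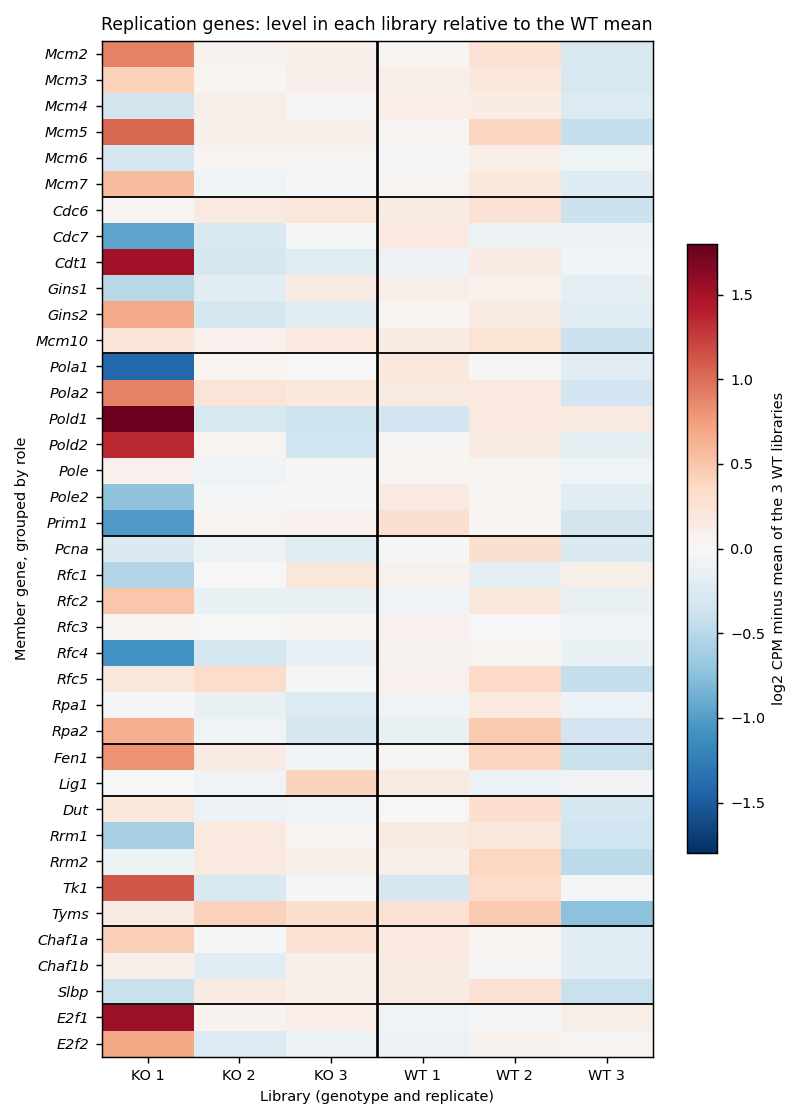
Log2 CPM of each of the 39 members minus its mean over the 3 WT libraries (colour, red above and blue below), by library (columns, KO left of the thick line) and by role (rows, divided by lines). KO replicate 1 holds both the strongest red, Pold1 at 1.76, and the strongest blue, Pola1 at −1.41, and the column of the library labelled WT replicate 3 is blue for 35 of 39 members.

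A further 45 replication and S phase genes outside the list, chosen by role, all passed the filter. In these, 16 of 45 log2 fold changes were above 0 with a median of −0.07, and 0 were called. Without KO replicate 1, 25 of 45 were above 0 and the median was 0.04. Before adjustment, 1 of 45 had an edgeR p under 0.05, against 7.51% of all genes. The KO libraries lay wholly above or below the WT libraries in 3 of 45, or 6.67%, against 15.7% of all genes. The gene with p under 0.05 was E2f7, an atypical E2F that represses E2F targets. It had 30.5, 32.4 and 32.5 CPM in KO and 19.4, 22.04 and 15.9 CPM in WT libraries. All KO libraries were above all WT libraries, and the log2 fold change was 0.73 (SE 0.25; edgeR adjusted p = 0.573). The next by p were the histone chaperone gene Asf1b at 0.56, the origin recognition subunit Orc5 at −0.49 and the single-strand binding subunit Rpa3 at −0.50. Pearson's r with GC content in KO replicate 1 was 0.901 over the 45 genes. Of 10 G2 and mitosis genes, 4 had a log2 fold change above 0, the median was −0.05 and 0 were called.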

How the data were processed

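Natural Treg mRNA of 3 KO and 3 WT mice was sequenced as 75-base single ends from stranded libraries, per the labels, and groups come from the sample titles. The file headers name STAR 2.4.2a as the aligner, and the submitters' processing notes name mm9 as the build. How reads were assigned to genes, with which strand setting and annotation, is not given in the sources used here, and overlapping genes may share reads. Whole-number counts per gene symbol were deposited by the authors without normalization. Another deposited table, for 24917 symbols, was read as FPKM from its name and values. An alignment report deposited by the authors gives percent values per library. Date-like entries (26, with 0.271% of counts) stayed in the library sizes and were not named.

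The counts were fitted in edgeR 4.0.16 (R 4.3.3) with TMM scaling, and filterByExpr at a minimum count of 10 left 11772 genes. The quasi-likelihood test was adjusted by Benjamini-Hochberg over these genes, with a threshold of 0.05, and the fit was tested on simulated data. Adjusted p-values are from edgeR. DESeq2 1.42.0 and limma 3.58.1 served for alternatives. GC content and length are those of the longest coding GENCODE M21 transcript, and the GC and length correction used loess with a span of 0.3. No p was computed over the list. The members and lists were chosen with earlier results of these data known. Values per library were planned for Mcm2 to Mcm7, Pcna, E2f1, E2f2, the members extreme in fold change and the member of highest FPKM, and the 4 companion genes of smallest p were to be named. Those of Pola1, Pola2, Pold1, Prim1, Cdt1 and Tyms were added after they were seen. Counts of a member in a library ran from 159 to 24585. Promoter coordinates are GRCm38.p6, not the build of the counts.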

Additional observations from a re-analysis of the deposited data

How the results depend on the processing

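Members called remained 0 under every alternative tried, namely other scalings, filters and tools, the replicate block, each library left out, 2 against 2 libraries, 3 FPKM fits, and a GC and length correction added after the data were seen. With 1 library left out, members at an unadjusted edgeR p under the threshold of 0.05 ranged from 0 to 1. The 1 was E2f1 without KO replicate 2, at an edgeR adjusted p of 0.599. Genes called, 2 in the fit reported, were 6 with no filter, 121 with the DESeq2 Wald test, 1 with voom, 229 with voom quality weights, 80 with 2 against 2 libraries, 0 with log2(FPKM + 1) without a filter, 15 with the GC and length correction and 0 to 3 with 1 library left out. Whether the replicate numbers pair the samples is not given. Correlations of same-numbered deviations were −0.361, 0.145 and 0.138. These cannot decide it, since KO replicate 1 shifts the mean from which all KO deviations are taken. With the numbers as a replicate block, 1 gene and 0 members were called. Members above 0 were 10 with quality weights and 9 with 2 against 2 libraries, whose median was −0.0789. The highest count was 28, without WT replicate 2, with a median of 0.2057. Companion genes above 0 ranged from 12, without the library labelled WT replicate 3, to 25, without KO replicate 1, where their median was 0.0382. Over all 39 members, 17 changed sign without KO replicate 1, 19 with 2 against 2 libraries and 9 with the GC and length correction. The values that follow are only for Mcm2 to Mcm7, Pcna, E2f1, E2f2, Rfc4, Pola1, Pola2 and Pold1. With quality weights the log2 fold changes of Mcm3, Mcm5, Mcm6, Mcm7, E2f2 and Pold1 changed sign to −0.0216, −0.0066, 0.0176, −0.1008, −0.1255 and −0.1710. With 2 against 2 libraries those of Mcm2, Mcm3, Mcm5, Mcm6, Mcm7, E2f2 and Pold1 did, to −0.0543, −0.0589, −0.1093, 0.0230, −0.1411, −0.1271 and −0.2533. With the GC and length correction those of Pcna, Mcm4, E2f2 and Pold1 did, to 0.0022, 0.0901, −0.1827 and −0.0003. With 1 library left out, log2 fold changes ranged from −0.1811 to 0.0570 for Mcm4, from −0.1411 to 0.0405 for Mcm6, from −0.0561 to 0.2839 for Mcm7, from −0.1693 to 0.3532 for E2f2, from −0.5574 to 0.0020 for Pola1 and from −0.3512 to 1.0381 for Pold1, and changed sign without KO replicate 1. Mcm4 also did so without WT replicate 2. None of these members was called under any setting, and the cause was not tested.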
